A study of Mus musculus with 12 samples.

Results

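The 10 genes described here encode the protease-activated receptors, membrane-anchored serine proteases that lie around them, and the Kunitz inhibitors of those proteases. They were taken by name from the 55536 genes of the deposited table: the receptor genes F2r, F2rl1, F2rl2 and F2rl3, the protease genes Tpsg1, Tmprss6, St14 and Prss8, and the inhibitor genes Spint1 and Spint2. The set was built around F2rl1 and Tpsg1, which stood among the largest differences between the tumour genotypes, and Tmprss6, which stood among the largest excesses of tumour over muscle. Those 3 values are therefore given as descriptions without a test, and the other 7 genes joined as relatives and partners.

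The study set mouse tumours driven by a translocation between the endogenous Ewsr1 and Atf1 genes beside tumours in which the EWSR1-ATF1 fusion, the driver of clear cell sarcoma, was expressed from the Rosa26 locus. The translocation tumours (n = 5) carried HprtCre together with Ewsr1-loxP and Atf1-loxP. The Rosa26 tumours (n = 6) carried Rosa26-LSL-EWSR1-ATF1, in which a loxP-flanked stop blocks the fusion until Cre removes it, and no Cre driver is named for them. The reference tissue was 1 library of wild-type skeletal muscle (n = 1). No drug was given, and primary tumours were frozen once they caused morbidity. Cre from the Hprt locus is not tied to 1 cell type, so the labels do not give the cell in which a tumour began, and they state neither age nor sex.

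Protease-activated receptors are G protein-coupled receptors that carry their own ligand: a protease cuts the extracellular end, and the new end folds back to switch the receptor on. Thrombin cuts the products of F2r (PAR1) and F2rl3 (PAR4), while F2rl1 (PAR2) is cut by trypsin-like enzymes such as tryptase and matriptase. Matriptase and prostasin, the products of St14 and Prss8, sit on the surface of epithelial cells and are held in check by hepatocyte growth factor activator inhibitors, the products of Spint1 and Spint2.

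Library depth was 2.96 to 21.2 M counts for the translocation tumours, 6.82 to 21.5 M for the Rosa26 tumours and 25.0 M for muscle. Translocation tumour 2 and Rosa26 tumour 4 were shallow, with 37.8% and 30.0% of counts in genes that hold ribosomal sequence. Skeletal muscle markers summed to 78800 CPM in Rosa26 tumour 1, 4420 CPM in Rosa26 tumour 3 and 7310 CPM in translocation tumour 2. The muscle library held 520000 CPM of them, all on the 12-library scale. By their titles, Rosa26 tumours 5 and 6 (all but the last digit alike) may share an animal, and the muscle title has the leading number of translocation tumour 1. Xist and Y-linked RNA read translocation tumours 1 to 4 and Rosa26 tumours 1 and 4 as female. Translocation tumour 5 and Rosa26 tumours 2, 3, 5 and 6 read as male, so sex and genotype are partly confounded. Translocation tumours 2 and 5 share a leading number but differ in sex (Xist 1140.29 and 0.1 CPM), so they are not from 1 animal. Values in tumours are CPM, read counts scaled for library depth with TMM factors over the 11 tumours, unless the 12-library scale that includes muscle is named. With bulk RNA, fewer cells of a type and less RNA per cell cannot be told apart.

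F2rl1, the PAR2 gene, was close to absent in the translocation tumours and present in every Rosa26 tumour. Translocation tumours 1 to 5 held 0, 0, 0.0442, 0.281 and 0.257 CPM, from 11 counts in all, while the Rosa26 tumours ran from 6.68 through a median of 23.6 to 46.0 CPM, from 2221 counts. The groups did not overlap, and the lowest Rosa26 tumour, number 5, lay above every translocation tumour. The pooled rate was 144 times higher in the Rosa26 than in the translocation tumours (exact 95% interval 80.5 to 290, which covers counting error only), and the fitted log2 fold change, translocation over Rosa26, was -7.25 ± 0.83 (SE). In muscle F2rl1 stood at 1.95 CPM on the 12-library scale, above all 5 translocation tumours (at most 0.259 CPM) and below all 6 Rosa26 tumours (at least 6.28 CPM). F2rl1 (ENSMUSG00000021678) lies on the minus strand at chr13:95511732-95525227 (mm10), and its neighbours on both sides were measured too. Of 6 tested genes within 250 kb, 0 passed the edgeR test in either direction, with log2 fold changes from -0.40 (Zbed3) to 2.18 (Crhbp, edgeR adjusted p = 0.432). At an unadjusted p under 0.05, and by the DESeq2 Wald test, the count was also 0.

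F2r, the PAR1 gene, lies 76.6 kb from F2rl1, at chr13:95601803-95618487 (mm10, minus strand), and was the most abundant receptor transcript in every library. It had 58.4, 96.0, 11.5, 12.5 and 435 CPM in translocation tumours 1 to 5, against 45.7 to 226 CPM (median 159) in the Rosa26 tumours. Translocation tumour 5 was the highest of all 11 and translocation tumours 3 and 4 the lowest, so the Rosa26 range fell inside that of the translocation tumours. The log2 fold change was -0.28 ± 0.81 (SE, edgeR adjusted p = 0.867), and without translocation tumour 5 it was -1.77 (edgeR adjusted p = 0.133). Sign and size thus rested on single libraries, with 0.02 without translocation tumour 3.

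F2rl2 and F2rl3, the genes of PAR3 and PAR4, were scarce in both genotypes. In mouse platelets PAR3 serves as a cofactor that helps thrombin cut PAR4. F2rl2 held 4 counts in translocation tumour 3 and 0 in the other 4, against 0 to 0.734 CPM and 42 counts over the Rosa26 tumours, and the low-count filter left it out. F2rl3 had 1.07, 0, 2.21, 1.46 and 0.412 CPM in translocation tumours 1 to 5, against 0.191 to 1.04 CPM (median 0.569) in the Rosa26 tumours. The ranges overlapped and the test was not passed (log2 fold change 0.82 ± 0.62, SE, edgeR adjusted p = 0.44). Of 3 tested platelet and megakaryocyte markers 1 rose and 0 fell (median log2 fold change 0.96). Pf4 (platelet factor 4) had 3.76 (edgeR adjusted p = 0.0181), a call lost on leaving out Rosa26 tumour 3 or 6 (edgeR adjusted p up to 0.0629), while the platelet integrin gene Itga2b had 0.96 (edgeR adjusted p = 0.452). Pf4 alone reached 209 CPM in a translocation tumour, while Gp1ba, Gp6 and Gp9 of the same list held 7, 6 and 14 counts in the translocation and 13, 12 and 12 in the Rosa26 tumours. The summed list ran from 25.7 (tumour 3) to 226 CPM in the translocation and from 15.1 to 35.3 CPM in the Rosa26 tumours on the 12-library scale. Its part in the F2rl3 values was not tested.

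F2rl2 lies 78.4 kb beyond F2r, inside the span of Iqgap2 on the other strand. The promoters of these neighbours are shown because their levels differ so widely. Each window runs from 250 bases before to 50 after the RefSeq start (GRCm38.p6), and capitals mark GGGCGG or its reverse complement.
F2r, chr13:95618417-95618716, minus strand: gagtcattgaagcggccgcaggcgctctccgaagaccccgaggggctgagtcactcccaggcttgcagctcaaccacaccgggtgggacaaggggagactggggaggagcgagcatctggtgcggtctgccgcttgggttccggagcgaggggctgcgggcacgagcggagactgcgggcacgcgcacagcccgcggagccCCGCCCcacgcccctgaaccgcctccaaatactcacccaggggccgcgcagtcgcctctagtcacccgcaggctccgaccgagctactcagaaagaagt
F2rl2, chr13:95696670-95696969, plus strand: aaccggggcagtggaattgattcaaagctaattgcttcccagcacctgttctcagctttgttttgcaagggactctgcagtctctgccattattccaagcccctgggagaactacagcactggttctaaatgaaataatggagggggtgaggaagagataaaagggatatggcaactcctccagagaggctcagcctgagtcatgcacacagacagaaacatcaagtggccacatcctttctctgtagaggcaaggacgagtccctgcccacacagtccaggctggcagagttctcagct
The F2r window was 68.7% G and C with 28 CpG pairs, against 50.7% and 2 for F2rl2 and a median of 52.7% over 32851 promoters. GGGCGG occurred once in the F2r window, starting 49 bases upstream, and 0 times in the F2rl2 window. It was present in 35.7% of all promoters. Promoter sequence was matched for 6 of the 10 genes, leaving F2rl1, Tmprss6, St14 and Prss8 unmatched.

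Compared per kb of exon, the make-up of receptor RNA differed between the genotypes mainly in F2rl1. F2rl1 gave 0%, 0%, 0.347%, 2.23% and 0.0719% of the summed CPM per kb of the 4 receptor genes in translocation tumours 1 to 5, against 4.11% to 25.8% in the Rosa26 tumours and 13.4% in muscle. F2r gave 74.3% to 100% of the sum in the translocation tumours, 73.8% to 95% in the Rosa26 tumours and 84.1% in muscle. In translocation tumours 3 and 4, where F2r was lowest, F2rl3 gave 23.8% and 16.0%. These shares use the same contrast that selected F2rl1 and carry no test.

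**Figure D1:**
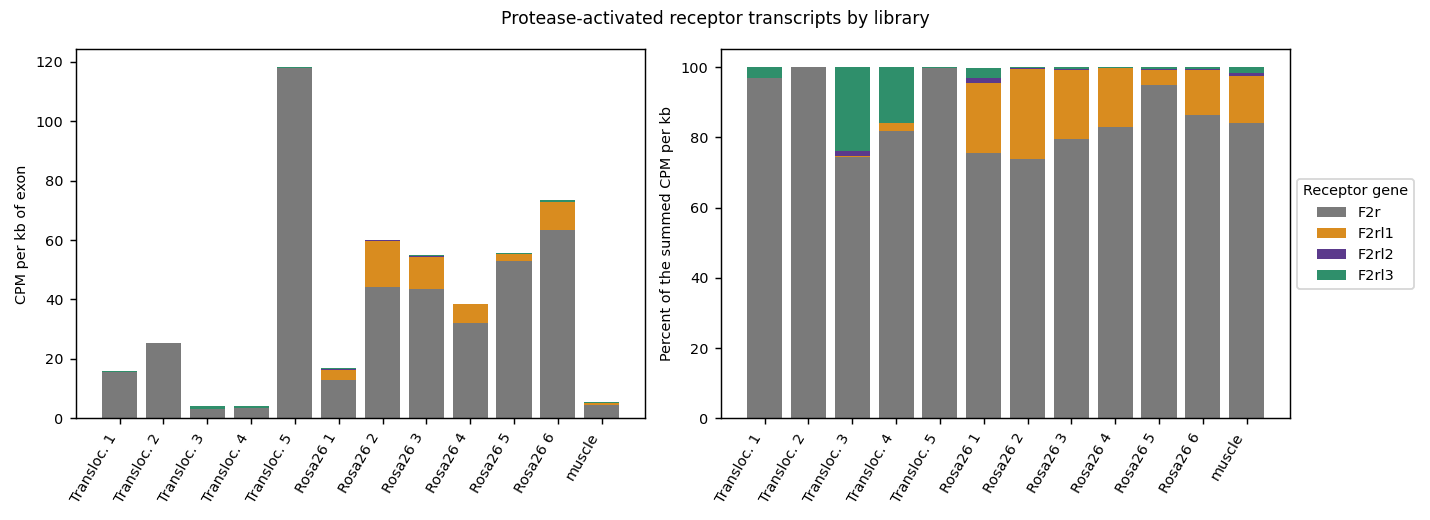
Transcripts of the receptor genes F2r, F2rl1, F2rl2 and F2rl3 in each library, as CPM per kb of exon on the 12-library scale (left, stacked bars) and as a percent of their sum (right). F2rl1 gives at most 2.23% of the sum in any translocation tumour and 4.11% to 25.8% in the Rosa26 tumours.

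Tpsg1 encodes a tryptase with a membrane anchor that most tryptases lack, and it showed the widest gap of the 10 genes. Translocation tumour 3 held 2 counts (0.0883 CPM) and the other 4 translocation tumours held 0, while the Rosa26 tumours ran from 4.38 through a median of 13.4 to 29.1 CPM, from 1626 counts. No translocation tumour reached the lowest Rosa26 value. The pooled rate was 581 times higher in the Rosa26 than in the translocation tumours (exact 95% interval 161 to 4800, counting error only). Muscle held 44 counts of Tpsg1, 4.30 CPM on the 12-library scale, above every translocation tumour and above Rosa26 tumour 4 (4.02 CPM).

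The gene lies at chr17:25369273-25374442 (mm10, plus strand; ENSMUSG00000033200), and its end overlaps Cacna1h on the other strand. Reads of the overlap cannot be assigned with certainty, since the strand setting of the counting is not given in the sources used here. Cacna1h, a calcium channel gene, had 1.34 to 81.4 CPM in the translocation tumours against 21.5 to 70.1 CPM in the Rosa26 tumours (log2 fold change -0.19 ± 0.64, SE, edgeR adjusted p = 0.886). Of 11 tested genes within 250 kb of Tpsg1, 0 passed in either direction (lowest edgeR adjusted p = 0.0903), against 1 at an unadjusted p under 0.05 and 1 by the DESeq2 Wald test. The window at the first RefSeq start of Tpsg1, shown as the promoter of the gene with the widest gap, held neither GGGCGG nor the cAMP response element TGACGTCA, its half-site TGACG, which overlaps the full element, or the E-box CACGTG on either strand.
Tpsg1, chr17:25369023-25369322, plus strand: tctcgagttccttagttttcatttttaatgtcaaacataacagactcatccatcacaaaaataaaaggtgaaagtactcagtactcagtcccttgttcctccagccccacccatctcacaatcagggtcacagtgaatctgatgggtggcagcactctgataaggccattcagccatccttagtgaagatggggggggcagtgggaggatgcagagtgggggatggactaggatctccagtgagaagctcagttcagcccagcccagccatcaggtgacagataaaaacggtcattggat
TGACGTCA is the element that ATF1 binds, and it was present in 1.79% of all promoters, TGACG in 20.8% and CACGTG in 7.15%. None of these 3 motifs occurred in any of the 7 windows matched to the 10 genes.

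Tryptases are best known from mast cells, so mast cell markers were set beside Tpsg1. In Rosa26 tumour 2, which had the most Tpsg1, the mast cell genes Cpa3, Cma1, Mcpt4, Tpsab1, Ms4a2 and Fcer1a were all at 0 counts, and the tryptase gene Tpsb2 stood at 0.395 CPM on the 12-library scale. In Rosa26 tumours 1 and 3 the mast cell carboxypeptidase Cpa3 reached 4.68 and 4.54 CPM and Tpsb2 3.58 and 2.90 CPM, while Tpsg1 stood at 5.66 and 24.5 CPM. The summed list of 15 mast cell markers ran from 7.75 to 83.2 CPM in the translocation tumours (highest in tumour 4, where Mcpt1 gave 77.1 CPM), from 6.55 to 54.2 CPM in the Rosa26 tumours and stood at 11.3 CPM in muscle. Summed counts of Cpa3, Mcpt4, Tpsb2 and Cma1 were higher over the Rosa26 tumours. Cpa3 had 1 count over the translocation and 195 over the Rosa26 tumours, Mcpt4 3 and 194, Tpsb2 6 and 155, and Cma1 14 and 117. Mcpt1 went the other way with 1540 and 257 counts, and Hdc with 86 and 72. The Rosa26 counts of Cpa3 and Mcpt4 came mostly from tumours 1 and 3. Elsewhere among the Rosa26 tumours they reached at most 0.147 and 0.175 CPM on the 12-library scale. All 11 markers that the filter left out had a lower pooled rate in the translocation tumours, and their part in the Tpsg1 values was not tested. Of 4 mast cell markers (Kit, Hdc, Gata2 and Mcpt1) that passed the filter 0 changed by the edgeR test, by DESeq2 or at an unadjusted p under 0.05, with a median log2 fold change of 0.56 against 0.07 over all tested genes. Kit, the stem cell factor receptor, averaged 6.51 ± 6.82 CPM in translocation tumours (SD, n = 5) against 7.15 ± 3.48 CPM in Rosa26 tumours (SD, n = 6).

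**Figure D2:**
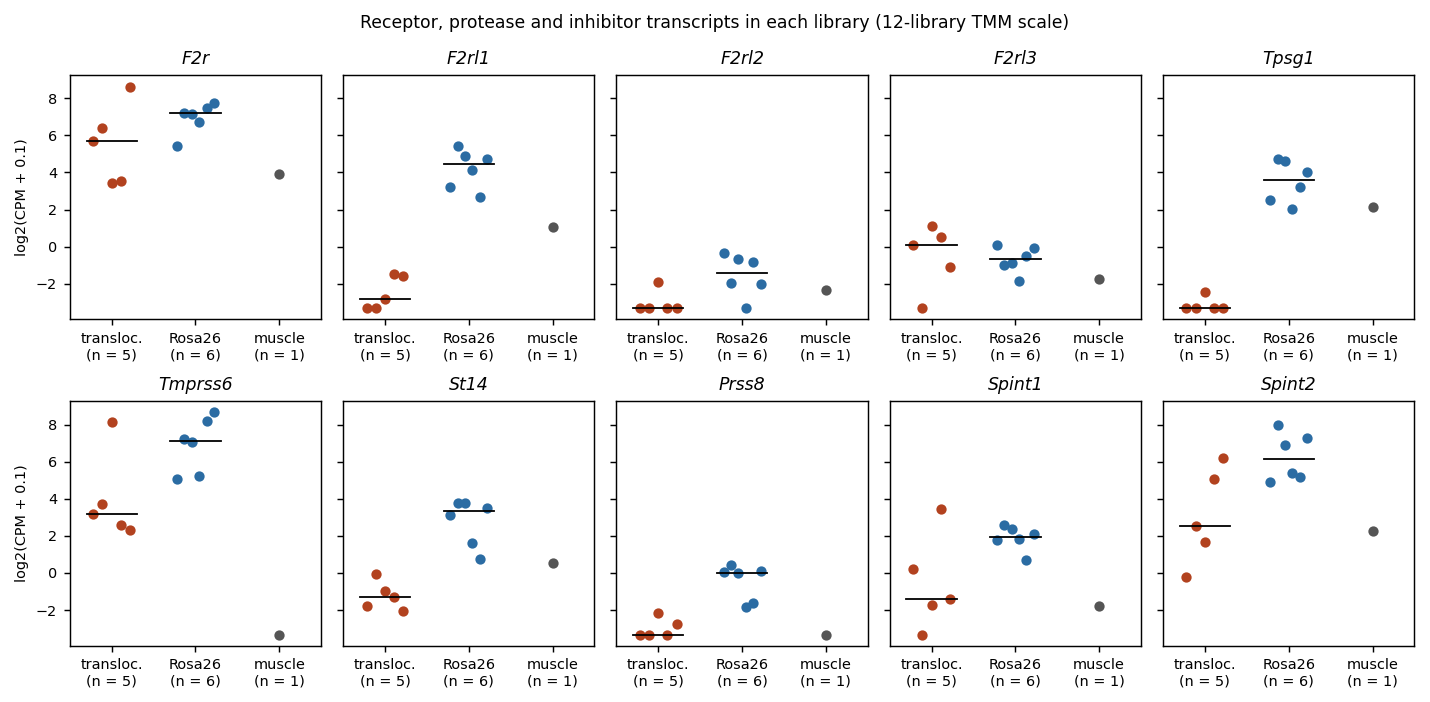
Each point is 1 library, as log2(CPM + 0.1) on the 12-library scale, for the 5 translocation tumours, the 6 Rosa26 tumours and the muscle, with a line at the median of each tumour group. The tumour groups do not overlap for F2rl1, Tpsg1, St14 and Prss8, and single translocation tumours stand far above the others for F2r, Tmprss6 and Spint1.

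St14, the matriptase gene, which joined the set as a partner of the genes picked on their values, was lower in the translocation tumours. It had 0.215, 0.990, 0.442, 0.337 and 0.154 CPM in translocation tumours 1 to 5, from 23 counts in all, against 1.71 to 14.7 CPM (median 10.6) in the Rosa26 tumours, from 937 counts. The groups did not overlap, with Rosa26 tumour 5 the nearest to the translocation tumours. The log2 fold change was -4.68 ± 0.74 (SE, edgeR adjusted p = 0.0124), lower in 5 of 5 translocation tumours than in any Rosa26 tumour. St14 passed the low-count filter through the Rosa26 tumours: 1 of 5 translocation and 6 of 6 Rosa26 tumours reached its 0.619 CPM, so a difference was built into its being tested. With no filter the log2 fold change was -4.70 (edgeR adjusted p = 0.0105), and over the 11 fits that left out 1 tumour it lay between -4.92 and -4.47 (edgeR adjusted p from 0.0135 to 0.0416). Over all 17021 tested genes 2.7% passed in the genotype comparison, 1.56% as lower and 1.14% as higher in the translocation tumours, and 5.18% had groups that did not overlap. Among the 8 of the 10 genes that passed the filter, St14 was the only one to pass besides F2rl1 and Tpsg1, which the contrast itself had selected. St14 (ENSMUSG00000031995) lies at chr9:31089402-31131853 (mm10, minus strand) and overlaps a processed pseudogene, Gm16071, on the other strand.

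Prss8, the prostasin gene, followed the same order at a far lower level. Translocation tumours 3 and 5 held 3 and 1 counts and the others 0, against 0.191 to 1.37 CPM (median 0.975) and 81 counts over the Rosa26 tumours. The groups did not overlap, though the lowest Rosa26 value was 1 count, in tumour 4, and the low-count filter left the gene out of the main test. Of the fits without 1 tumour, Prss8 entered the 5 without a translocation tumour, where fewer libraries had to reach the filter. It also entered with translocation tumours 2 and 5 summed (edgeR adjusted p = 0.0418), without those and Rosa26 tumour 4 (edgeR adjusted p = 0.0665), and with muscle kept (edgeR adjusted p = 0.057). Among tumours, only Rosa26 tumours reached the filter's CPM (4 of 6, against 0 of 5 translocation tumours). Its calls without translocation tumour 2 or 3 (edgeR adjusted p = 0.0486 and 0.0372), and with tumours 2 and 5 summed, therefore rest on the group where it is high. With no filter Prss8 was not called (log2 fold change -3.84, edgeR adjusted p = 0.0677). Prss8 (ENSMUSG00000030800) lies at chr7:127925716-127930104 (mm10, minus strand), and its end overlaps Kat8 on the other strand, so some of its few reads may belong to that gene.

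Spint2 and Spint1, the inhibitor genes, overlapped between genotypes. Spint2 had 0.859, 6.44, 3.40, 36.7 and 81.6 CPM in translocation tumours 1 to 5, against 31.7 to 271 CPM (median 87.5) in the Rosa26 tumours. Translocation tumours 1 to 3 lay below every Rosa26 tumour while tumours 4 and 5 lay within their range, and the log2 fold change of -2.13 ± 1.0 missed the threshold (SE, edgeR adjusted p = 0.212). Spint1 had 1.18, 0, 0.221, 11.6 and 0.309 CPM in the translocation tumours, against 1.63 to 6.32 CPM (median 4.11) in the Rosa26 tumours. Translocation tumour 4 exceeded all others and the remaining 4 lay below every Rosa26 tumour. The log2 fold change was -0.58 ± 0.98 (SE, edgeR adjusted p = 0.753), but -3.14 without translocation tumour 4 (edgeR adjusted p = 0.0494). Both inhibitor promoters were rich in GGGCGG, in capitals here on either strand.
Spint2, chr7:29281928-29282227, minus strand: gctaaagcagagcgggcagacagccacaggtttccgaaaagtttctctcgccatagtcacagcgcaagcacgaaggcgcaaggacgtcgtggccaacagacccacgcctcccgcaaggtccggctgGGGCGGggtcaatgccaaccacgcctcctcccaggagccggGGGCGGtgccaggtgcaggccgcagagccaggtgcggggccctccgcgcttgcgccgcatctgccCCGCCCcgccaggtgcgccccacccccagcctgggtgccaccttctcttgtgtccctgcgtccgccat
Spint1, chr2:119237110-119237409, plus strand: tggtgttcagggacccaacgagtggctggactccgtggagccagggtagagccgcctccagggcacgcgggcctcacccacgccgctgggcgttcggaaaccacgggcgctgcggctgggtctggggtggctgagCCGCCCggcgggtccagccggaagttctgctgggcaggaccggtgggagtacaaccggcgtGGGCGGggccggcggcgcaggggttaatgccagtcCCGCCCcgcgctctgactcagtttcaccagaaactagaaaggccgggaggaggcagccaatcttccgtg
Each window held 3 copies, with 69.3% G and C in the Spint2 window and 69.7% in the Spint1 window.

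Per kb of exon, the inhibitors outweighed the proteases they restrain in every library. The sum of Spint1 and Spint2 was 21.9, 10.9, 6.39, 278 and 375 times that of St14 and Prss8 in translocation tumours 1 to 5, against 4.76 to 25.3 times in the Rosa26 tumours and 6.26 times in muscle. Translocation tumours 4 and 5 held 11.3 and 16.3 CPM per kb of inhibitor, against 7.77 to 57.0 CPM per kb in the Rosa26 tumours. Their protease sums were 0.0407 and 0.0434 CPM per kb, from few counts, against 0.335 to 2.46 CPM per kb in the Rosa26 tumours.

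**Figure D3:**
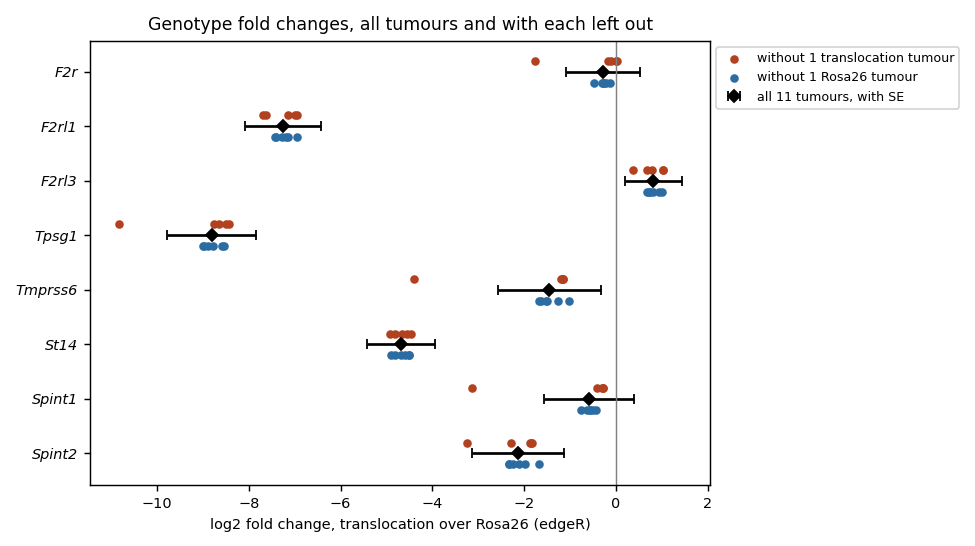
Log2 fold changes of translocation over Rosa26 tumours for the 8 genes that passed the filter, with all 11 tumours (diamond, bar = SE) and with each tumour left out (points). St14 stays between -4.92 and -4.47, while Tmprss6 and Spint1 move to -4.39 and -3.14 when 1 translocation tumour is left out. F2rl1 and Tpsg1 were selected on this contrast.

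Most markers of epithelium, the setting in which matriptase is best known, were lower in the same tumours, with negative fold changes for 12 of 14 tested. Of 20 epithelial markers 14 passed the filter, and 0 rose and 6 fell by the edgeR test (DESeq2 0 and 9, unadjusted 0 and 9), with a median log2 fold change of -2.7 against 0.07 over all tested genes. For 9 of the 14 at most 1 translocation tumour reached the filter's CPM. Krt8, Epcam, Krt19, Ovol2 and Esrp1 were among these 9, and Cdh1 was not. The count of calls and the median therefore lean to genes that are high in the Rosa26 tumours. Krt8, a keratin of simple epithelia, had a mean of 0.279 ± 0.238 CPM over translocation tumours (SD, n = 5) against 33.9 ± 28.6 CPM over Rosa26 tumours (SD, n = 6). Its log2 fold change was -7.02 (edgeR adjusted p = 0.0133), called in 11 of 11 fits that left out 1 tumour. Krt8 reached the filter's CPM in 0 translocation and 6 Rosa26 tumours, so it was tested through the Rosa26 tumours alone. Cdh1, the E-cadherin gene, averaged 2.66 ± 3.06 CPM in translocation tumours, against 67.4 ± 66.7 CPM in Rosa26 tumours (SD; log2 fold change -4.59, edgeR adjusted p = 0.0321). Epcam, which encodes an adhesion protein that matriptase can cleave, had -5.37 (edgeR adjusted p = 0.0285), the keratin gene Krt19 -5.12 (edgeR adjusted p = 0.0381) and the transcription factor gene Ovol2 -4.91 (edgeR adjusted p = 0.039). Esrp1, an epithelial splicing regulator, held 0 counts in the translocation and 1025 in the Rosa26 tumours (edgeR adjusted p = 0.0275). The calls other than Krt8 each ended in 1 or more of the fits without 1 tumour. Those of Cdh1, Epcam, Krt19 and Ovol2 ended without translocation tumour 1 and without Rosa26 tumour 3, and that of Esrp1, tested in 6 of the 11 fits, without translocation tumour 1. With no filter Cdh1 was not called (edgeR adjusted p = 0.0581). The highest edgeR adjusted p over those fits was 0.0968, for Ovol2.

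The epithelial list summed to 8.54 to 41.5 CPM over the translocation tumours, 24.8 to 364 CPM over the Rosa26 tumours and 32.4 CPM in muscle, on the 12-library scale, so these ranges overlapped. The part of epithelial RNA in the values of the 10 genes was not tested. Within the Rosa26 genotype, tumours 2, 3 and 6 were the 3 highest for F2rl1, Tpsg1, St14, Spint1 and Spint2, or 5 of the 10 genes, and for 7 of 14 epithelial markers. Those 3 were the highest for 8.98% of 15799 tested genes at a mean of 1 CPM or more, and the pattern was picked out after its values were seen. Among the rest, tumour 1 held the most muscle RNA of the Rosa26 tumours and tumour 4 the ribosomal RNA described above. Tumour 3 also held skeletal muscle markers, at 4420 CPM. Tumours 2, 3 and 6 all read as male, as did tumour 5, while tumours 1 and 4 read as female.

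**Figure D4:**
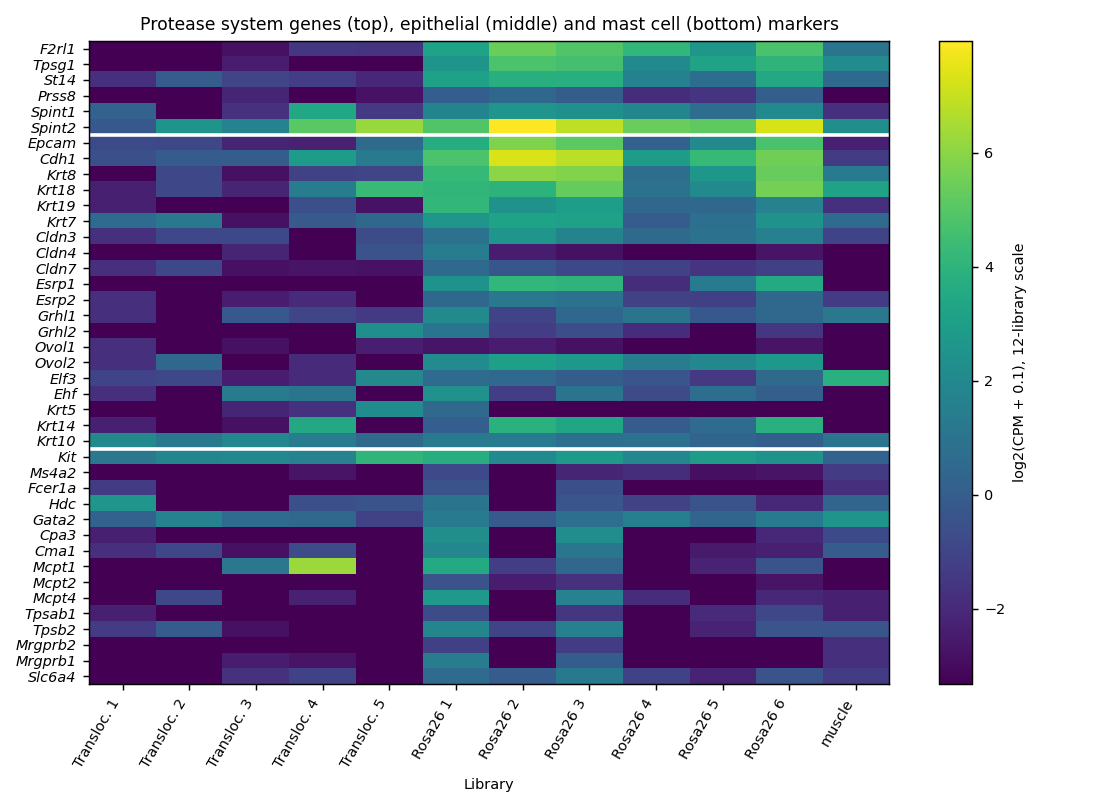
Heat map of log2(CPM + 0.1) on the 12-library scale for F2rl1, Tpsg1 and the matriptase system (top block), 20 epithelial markers (middle block) and 15 mast cell markers (bottom block), by library. Rosa26 tumours 2, 3 and 6 are the 3 highest for 7 of 14 tested epithelial markers, while most mast cell markers are dark in Rosa26 tumour 2, where Tpsg1 is 26.9 CPM.

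Tmprss6 encodes matriptase-2, which is known from liver, where it cuts hemojuvelin and so lowers the iron hormone hepcidin. The gene (ENSMUSG00000016942) lies at chr15:78439667-78468634 (mm10, minus strand). It had 0 counts in muscle and at least 30 in each of the 11 tumours. On the 12-library scale the translocation tumours held 9.02, 13.1, 282, 5.96 and 4.88 CPM and the Rosa26 tumours 33.2 to 411 CPM. Against a floor of 3 counts in the muscle library, the lowest translocation tumour was at least 16.7-fold higher and the lowest Rosa26 tumour at least 113-fold higher. This excess selected the gene and has no replicate check on the muscle side.

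Between genotypes, a comparison that did not select it, Tmprss6 turned on 1 library. Translocation tumours 1 to 5 had 10.1, 14.9, 307, 6.47 and 5.41 CPM, against 35.1 to 439 CPM (median 152) in the Rosa26 tumours. Translocation tumour 3 lay among the highest Rosa26 tumours and the other 4 lay below the lowest. The log2 fold change was -1.45 ± 1.12 (SE, edgeR adjusted p = 0.447), and -4.39 ± 0.81 without translocation tumour 3 (SE, edgeR adjusted p = 0.0278). Hepatocyte markers were at or near 0, and the 1 that passed the filter was not called. Alb, the albumin gene, held 0 counts over the translocation and 10 over the Rosa26 tumours, Hnf4a 1 and 0, and the 9 markers in the table summed to at most 2.59 CPM in a translocation and 16.0 CPM in a Rosa26 tumour on the 12-library scale. Of 24 tested genes of the hepcidin and BMP iron pathway 0 passed edgeR's test in either direction (median log2 fold change -0.02). At an unadjusted p under 0.05 there were 3 higher and 4 lower, and by DESeq2 1 higher and 2 lower. Fth1 and Ftl1, which encode the ferritin chains that store iron, had 1.28 and 0.90 (edgeR adjusted p = 0.0792 and 0.148). Hfe2, the hemojuvelin gene, stood at 506 CPM in muscle and at 117 CPM in 1 Rosa26 tumour, with medians of 0.154 CPM in the translocation and 0.184 CPM in the Rosa26 tumours.

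Each tumour genotype was also set against the muscle library. A gene was counted as past the fold when its mean log2 CPM differed from muscle by at least 1 with every tumour of the group on the same side, a description with no test. In the translocation tumours 4 of the 10 were past it, where 39.5% of 22184 genes were, 20% as higher and 19.5% as lower: Tmprss6 higher, and F2rl1 (mean log2 difference -3.36 ± 0.81, SD, n = 5), Tpsg1 (-5.02 ± 0.33) and St14 (-1.72 ± 0.75) lower. In the Rosa26 tumours 7 of the 10 were past it, all higher, where 54.6% of genes were past it and 31.2% as higher. These were F2r (3.05 ± 0.81, SD, n = 6), F2rl1 (3.13 ± 1.05), Tmprss6 (9.93 ± 1.5), St14 (2.19 ± 1.25), Prss8 (2.60 ± 0.95), Spint1 (3.55 ± 0.65) and Spint2 (3.98 ± 1.28). Prss8 had 0 counts in muscle, and against a floor of 3 counts its Rosa26 mean was at least 2.55-fold higher while the lowest Rosa26 tumour was at 0.597 times the floor, so that not every tumour is shown to lie above muscle. The translocation count is close to the share of all genes, F2rl1, Tpsg1 and Tmprss6 were picked on related values, and the genotypes were not compared by these counts. Both comparisons share the 1 muscle library. F2rl1 and Tpsg1 had 11 and 2 counts over the translocation tumours, so their differences there, and the narrow SD of Tpsg1, depend on the prior count. With total counts as the only scaling the median gene shifted by 0.92 and 1.01 in the translocation and Rosa26 comparisons, and the St14 mean in the translocation tumours was then -0.54, no longer past the fold.

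Per kb of exon the order of levels also differed. In the translocation tumours F2r (33.1 ± 48.2 CPM per kb, SD, n = 5), Tmprss6 (18.8 ± 36.5) and Spint2 (5.14 ± 6.83) came first, each within the spread of the next, and St14, F2rl1, Prss8, F2rl2 and Tpsg1 each averaged at most 0.0504 CPM per kb. In the Rosa26 tumours the order ran Tmprss6 (52.5 ± 44.5 CPM per kb, SD, n = 6), F2r (41.5 ± 17.5), Spint2 (23.3 ± 19.2), Tpsg1 (10.4 ± 7.0) and F2rl1 (7.99 ± 4.96), again with neighbours inside each other's spread. Spint1, St14, Prss8, F2rl3 and F2rl2 followed at 1.40 to 0.133 CPM per kb. In muscle F2r (4.48 CPM per kb) and Tpsg1 (3.09) led, and Tmprss6 and Prss8 were at 0.

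Other genes of the protease and receptor network mostly did not pass the edgeR test. A list of proteases, cofactors and coagulation genes around these receptors was also compared, and not all of its genes act on the receptors. Of its 17 tested genes 0 rose and 1 fell, with a median log2 fold change of 1.09 (DESeq2 2 and 1, unadjusted 3 and 1). The one was Klk1, a kallikrein gene, with 4 counts in the translocation and 147 in the Rosa26 tumours (log2 fold change -4.66 ± 0.74, SE, edgeR adjusted p = 0.0127). It reached the filter's CPM in 0 translocation and 6 Rosa26 tumours, so it too was tested through the Rosa26 tumours alone. Thbd, which encodes thrombomodulin, a thrombin receptor on endothelium, averaged 1350 ± 815 CPM in translocation tumours (SD, n = 5) against 632 ± 281 CPM in Rosa26 tumours (SD, n = 6; edgeR adjusted p = 0.18). The coagulation factor V gene F5 averaged 501 ± 681 CPM in translocation and 71.3 ± 65.4 CPM in Rosa26 tumours (edgeR adjusted p = 0.25). For the plasminogen activator genes Plau and Plat the log2 fold changes were -0.27 and -0.03 (edgeR adjusted p = 0.85 and 0.988).

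Of 16 tested serine protease inhibitors 0 rose and 1 fell (median 0.63; DESeq2 2 and 1, unadjusted 3 and 1). Serpinb5, the maspin gene of epithelial cells, held 3 counts in the translocation and 2056 in the Rosa26 tumours (edgeR adjusted p = 0.0188), and it was tested in 6 of the 11 fits without 1 tumour. It reached the filter's CPM in 0 translocation and 5 Rosa26 tumours, so the Rosa26 tumours alone decided whether it was tested. The abundant inhibitor gene Serpine2 averaged 1430 ± 1920 CPM in translocation against 1620 ± 931 CPM in Rosa26 tumours (edgeR adjusted p = 0.919). Of 8 tested membrane-anchored or related serine proteases outside the 10 genes, 0 rose and 1 fell, all 8 with negative fold changes (median -0.99; DESeq2 0 and 3, unadjusted 0 and 4). Prss12, the neurotrypsin gene, had a fitted change of -2.76 ± 0.53 (log2, SE; edgeR adjusted p = 0.0256), at 1.61 ± 0.984 CPM in the translocation and 11.3 ± 5.36 CPM in the Rosa26 tumours, and 7 of 11 fits without 1 tumour kept the call. Leaving out translocation tumour 1, Rosa26 tumour 3, 5 or 6 lost it (edgeR adjusted p up to 0.0711). Prss23 averaged 173 ± 232 CPM in the translocation and 1230 ± 586 CPM in the Rosa26 tumours without a call (edgeR adjusted p = 0.0809).

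Of 9 tested substrates and partners of matriptase and prostasin 0 rose and 2 fell (median -0.08; DESeq2 0 and 2, unadjusted 1 and 2). These were Epcam, given above, and Cdcp1, which encodes a surface protein cut by matriptase, with 3 counts in the translocation and 267 in the Rosa26 tumours (edgeR adjusted p = 0.0181; 0.0518 without translocation tumour 1). Cdcp1 too passed the filter through the Rosa26 tumours alone, in 6 of the 11 fits. Hgf, the hepatocyte growth factor gene, had -0.08 and Scnn1a, an epithelial sodium channel subunit gene, 1.29 (edgeR adjusted p = 0.959 and 0.262). Of 26 tested signal transducers of the receptors, among them the G protein genes Gnai2 and Gnb1, 0 passed in either direction (median -0.36), while 0 rose and 5 fell by DESeq2 and 7 were lower at an unadjusted p under 0.05. The lowest edgeR adjusted p was 0.0641, for Grk5, which encodes a kinase that turns receptors off (log2 fold change -1.51). Arhgef12, which links receptors to RhoA, came next at -0.83 ± 0.25 (SE, edgeR adjusted p = 0.0792).

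Markers of other cell types were compared in the same fit. Of 12 endothelial markers 1 rose and 1 fell (median -1.2), with 2 higher and 4 lower by DESeq2 and 2 higher and 8 lower at an unadjusted p under 0.05. Egfl7 had a log2 fold change of 2.5 (edgeR adjusted p = 0.0431) and Erg -2.93 (edgeR adjusted p = 0.0367), but their calls held in 1 and 4 of 11 fits without 1 tumour. Of 12 fibroblast, 12 macrophage, 6 neutrophil and 14 skeletal muscle markers tested 0 passed, with medians of -0.47, 0.35, 2.47 and -2.97. DESeq2 called 1 fibroblast marker as lower and 0 of the rest, and at an unadjusted p under 0.05 there were 1 lower fibroblast and 2 higher neutrophil markers. Neutrophil markers summed to 16.6 to 379 CPM in the translocation and 11.4 to 57.1 CPM in the Rosa26 tumours, and fibroblast markers to 311 to 27700 CPM and 6420 to 103000 CPM, on the 12-library scale. Whether these bear on the receptors and proteases was not tested.

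Genes with the most similar pattern over the 11 tumours were listed from 11654 genes by Pearson's r of log2 CPM, as a description in which the genotype split is shared by all points. For F2rl1 the closest was Tpsg1 (r = 0.970), followed by Lmtk2 (0.962), L3mbtl3 (0.959), Mab21l3 (0.956) and Krt25 (0.953). For Tpsg1 they were Cited2 (0.992), Vwde (0.984), Nps (0.980), F2rl1 (0.970) and Tdo2 (0.963). St14 was closest to Tdo2 (0.954), Patj (0.949), Krt8 (0.945), Tpsg1 (0.931) and Esrp1 (0.928). Tmprss6 had a different set, with Rab3a (0.947), St8sia3 (0.918), Syt11 (0.912), Drd1 (0.908) and Gal (0.904). Cited2, whose product is a transcriptional coregulator, ran from 5.96 to 11.9 CPM in the translocation tumours and from 31.4 to 91.5 CPM in the Rosa26 tumours.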

How the data were processed

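Libraries came from a stranded ribosomal-RNA-depleting kit, per the labels' protocols. The authors deposited whole-number read counts per Ensembl gene, not normalized, for 12 libraries. Tools named in the submitters' processing notes are STAR 2.7.5a, featureCounts, cutadapt, DESeq2 and RSEM, with build mm10. Their annotation release, strand setting and handling of multi-mapped reads are not stated there. Symbols, positions and exon lengths came from GENCODE M21 (same build), and promoters from RefSeq GRCm38.p6.

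The genotype comparison used edgeR 4.0.16 (R 4.3.3) on 11 tumours: TMM scaling, filterByExpr at a minimum count of 10, robust quasi-likelihood tests and Benjamini-Hochberg adjustment over all 17021 tested genes at 0.05. SE is the size of the fold change divided by the root of F. In counts simulated for this comparison on 16717 genes, 69% of genes changed by a log2 fold of 3 and 90% of those changed by 5 were recovered. Differences from muscle used log2 CPM with a prior count of 2 and no test. The labels do not say whether samples came from separate animals, and p-values then reflect only sample-to-sample spread that may be technical. Exact intervals are Clopper-Pearson at 95% and cover counting error only.

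The 10 genes, the 15 lists and the tests were chosen with earlier results of these data known. By the rule for named genes, list genes came from those that passed the genotype test and the 4 of highest mean CPM in each list, and others (such as Grk5, Hfe2, Alb and Cpa3) were named after their values were seen. Neighbours were tested genes within 250 kb, and similar genes were searched at a mean of 5 CPM or more without clone and model names. Alternatives were DESeq2 1.42.0 size factors and Wald test, other filters, sex as a covariate (read from Xist and Y-linked genes), libraries with like titles summed and each tumour left out. Others were the shallow and outlying tumours left out, muscle in the fit, ribosomal sequence genes left out, another prior count and total counts only.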

Additional observations from a re-analysis of the deposited data

Results flagged for a closer look

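Of 20 sets of values (each of the 10 genes in each tumour genotype), 5 held 1 sample far from the others of its group. The CPM values were skewed and not log-transformed, so no chance rate can be set beside this count. For the F2rl2 and Tpsg1 values below, any count in 1 library stands out when the other 4 are at 0. All 5 were in the translocation tumours. Translocation tumour 5 had 435 CPM of F2r, and translocation tumour 3 had 307 CPM of Tmprss6. Translocation tumour 4 had 11.6 CPM of Spint1. Translocation tumour 3 also stood out at 0.177 CPM of F2rl2 (4 counts) and 0.0883 CPM of Tpsg1 (2 counts), where the other 4 translocation tumours were at 0.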

How the results depend on the processing

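No paired analysis was possible because the labels give no replicate numbers shared between genotypes. The genotype comparison called 460 genes, 91 with Rosa26 tumours 5 and 6 summed, 815 with translocation tumours 2 and 5 summed, 2534 with sex as a covariate, 2439 by the DESeq2 Wald test and 63 to 744 with 1 tumour left out. The sum of translocation tumours 2 and 5 joins a female and a male, so it is no check on a shared animal. Sex is unevenly split between the genotypes, so their effects cannot be fully told apart. The lowest counts came without Rosa26 tumour 3 (63), Rosa26 tumour 6 (75), translocation tumour 1 (112), Rosa26 tumour 5 (123) and Rosa26 tumour 4 (262), and the highest without translocation tumour 5 (744). St14 passed under all 21 alternatives, with log2 fold changes from -4.92 to -4.47. Besides F2rl1 and Tpsg1, 1 of the 10 genes was called in the main comparison, 2 with translocation tumours 2 and 5 summed (Prss8 added, edgeR adjusted p = 0.0418), and 1 to 3 with 1 tumour left out. Prss8 entered that summed fit through the Rosa26 tumours alone and was not called with no filter (edgeR adjusted p = 0.0677). The F2r fold change turned from -0.28 to 0.00 with sex as a covariate and to 0.02 and 0.01 without translocation tumour 3 or 4, and it ranged from -1.77 to 0.02 with 1 tumour left out. Leaving out both shallow libraries (translocation 2, Rosa26 4) together with translocation tumour 5 moved F2r to -2.51 (edgeR adjusted p = 0.0867) and turned Spint1 from -0.58 to 0.05. DESeq2 gave no adjusted p for Spint1. Tmprss6 ranged from -1.48 to -0.12 over the alternatives that left out no single tumour, without a call. The -0.12 came with sex as a covariate, which also moved Spint2 from -2.13 to -1.37 (edgeR adjusted p = 0.278). Against muscle, the counts of genes past the fold stayed within 1.5 times of the main counts. Against muscle, total counts only moved the Rosa26 means of F2r and Spint2 to 4.47 and 5.37 and a prior count of 0.5 moved those of Tmprss6 and Prss8 to 11.9 and 4.36, with no change of direction. The translocation means of Tpsg1 and F2rl1 ran from -6.76 to -3.71 and from -4.5 to -2.11 over the alternatives that left out no single tumour. The cause of these shifts was not tested. Translocation tumour 2, at 2.96 M counts, limits what can be seen of genes with few counts.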
